A study of Rattus norvegicus with 2 samples.

Results

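The cholesterol pathway of rat myeloma cells was examined at 7 genes, HMGCS1, IDI1, FDPS, FDFT1, SQLE, INSIG1 and SREBF2, in cells that had gained a human receptor for high-density lipoprotein (HDL). All probe sets whose symbol in the array's annotation was one of these names were taken, which gave 17 of 54613 probe sets and 6 of the 7 genes. No probe set was named FDFT1 in the annotation used here, so the first enzyme committed to sterols, squalene synthase, has no value. YB2/0 is a rat myeloma cell line, grown with fetal bovine serum, for which the paper names no drug treatment. The control group was 1 sample of YB2/0 cells, which the paper describes as untransfected. The other group was 1 sample labelled sorted, from YB2/0 cells that had received a cDNA library of human umbilical vein endothelial cells by retrovirus and had been selected by flow cytometry for binding of patient IgG. The paper's text calls the transfected cells on its arrays cloned cells, while the labels name neither the clone nor the serum. Total RNA of each sample was hybridised to 1 Affymetrix array with probe sets for human genes. Rat transcripts were thus measured only as far as they bound to human probes. Sorted cells also carried human cDNA, and which species gave a signal there was not tested.

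The cell makes cholesterol from acetyl-CoA through mevalonate and squalene. When membrane sterol is low, the SCAP protein escorts the precursor of SREBP2, encoded by SREBF2, from the endoplasmic reticulum to the Golgi, where proteases release a transcription factor that raises the genes of sterol synthesis and of lipoprotein uptake. When sterol is plentiful, INSIG1 holds SCAP and SREBP2 back, and INSIG1 is itself a target of SREBP2. SR-BI, encoded by SCARB1, takes up cholesteryl ester from HDL and also lets free cholesterol pass in both directions.

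Rat promoters of these genes are shown because they are the part of each gene through which SREBP2 acts, and because the cells' own genes, not the human probes, carry the regulation. RefSeq promoter sequences (GRCr8 build) were found for 5 of the 7 genes, Hmgcs1, Idi1, Fdps, Insig1 and Srebf2, and the 250 bases before the transcription start were searched on both strands. The motifs were CACCCCA, letters from the middle of the sterol regulatory element known as SRE-1, CACACGA, letters from the middle of the element known as SRE-3, the CCAAT box bound by NF-Y, and the GC box GGGCGG bound by Sp1. Their letters did not overlap in these promoters. In the following 3 promoters, written 5′ to 3′ on the strand of the gene, capitals mark the sterol element letters and the CCAAT boxes, which read ATTGG where they lie on the other strand.
Hmgcs1, chr2:53382054-53382303, + strand: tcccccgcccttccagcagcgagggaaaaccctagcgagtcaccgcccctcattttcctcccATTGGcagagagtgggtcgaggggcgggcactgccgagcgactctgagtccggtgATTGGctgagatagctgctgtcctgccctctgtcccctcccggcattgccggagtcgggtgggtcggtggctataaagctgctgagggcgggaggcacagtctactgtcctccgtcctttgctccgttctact
Fdps, chr2:176804817-176805066, - strand: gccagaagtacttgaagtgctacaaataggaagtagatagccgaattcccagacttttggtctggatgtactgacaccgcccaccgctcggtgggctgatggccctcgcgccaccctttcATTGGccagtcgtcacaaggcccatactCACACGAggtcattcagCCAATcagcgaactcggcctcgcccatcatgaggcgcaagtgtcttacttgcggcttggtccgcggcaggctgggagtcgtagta
Srebf2, chr7:115543057-115543306, + strand: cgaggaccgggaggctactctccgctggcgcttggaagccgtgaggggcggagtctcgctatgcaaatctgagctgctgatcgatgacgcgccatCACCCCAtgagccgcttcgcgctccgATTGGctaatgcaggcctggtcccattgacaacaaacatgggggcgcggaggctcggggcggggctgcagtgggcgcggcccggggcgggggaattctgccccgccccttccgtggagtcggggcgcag

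A CCAAT box was found in all 5 of these promoters, and in 34.0% of the 33469 rat promoters of the same length. Hmgcs1 held 2 of them, between 188 and 184 and between 133 and 129 bases before the start, and a GC box was found in 4 of the 5 promoters against 30.5% of all. Fdps held CACACGA between 102 and 96 bases before the start, against 1.03% of all promoters. Srebf2 held CACCCCA between 155 and 149 bases before the start, against 5.90% of all, and neither of these elements was found in Hmgcs1, Idi1 or Insig1. Elements that differ from these letters were not searched.

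Each array gives for a probe set a MAS5 signal, an intensity on a linear scale, and a call that names it Present, Marginal or Absent. Signals of different probe sets are not comparable as levels, so each probe set was compared with itself, as the log2 ratio of the sorted over the control signal. A probe set was counted as higher if it was at least 2-fold up and Present in sorted cells, and as lower if it was at least 2-fold down and Present in control cells. As each condition had 1 array, differences could not be set against a replicate error or tested, and the values describe these 2 arrays. On them 8.93% of probe sets were Present in control cells and 8.24% in sorted cells. The log2 ratio of 18 hybridisation spike probe sets, added in fixed amounts, lay between -0.58 and 0.57, and that of 24 polyA spike probe sets between -0.87 and 0.90. Of 11 plasma cell and B cell markers 2 were Present in at least 1 sample, SDC1, the plasma cell marker CD138, and PRDM1, the plasma cell regulator, or 3 of 22 probe sets where 12.5% of all probe sets were Present. None of the 11 probe sets of endothelial markers or the 4 of macrophage and T cell markers was. With a share near that of all probe sets, the human probes do not show the cell type of these rat cells.

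Of the 17 probe sets of the sterol genes, 6 were Present in at least 1 sample, against the same 12.5%, 1 was Marginal in control cells and Absent in sorted cells, and 10 were Absent in both. The Present ones were of HMGCS1, SQLE, INSIG1 and SREBF2, while IDI1 and FDPS had none. By the 2-fold rule 2 probe sets were lower in sorted cells, both of HMGCS1, and 0 were higher. Over all probe sets 1.77% were lower and 1.61% higher by this rule, and among the 6821 that were Present in at least 1 sample 14.1% were lower and 12.9% higher. Both counted probe sets read HMGCS1 and share its transcript, so they count as 1 gene. The count was 1 with gene-specific probe sets only, as 205822_s_at belongs to a class that may bind more than 1 gene, and 1 with a 4-fold rule, which 221750_at did not pass.

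**Figure D1:**
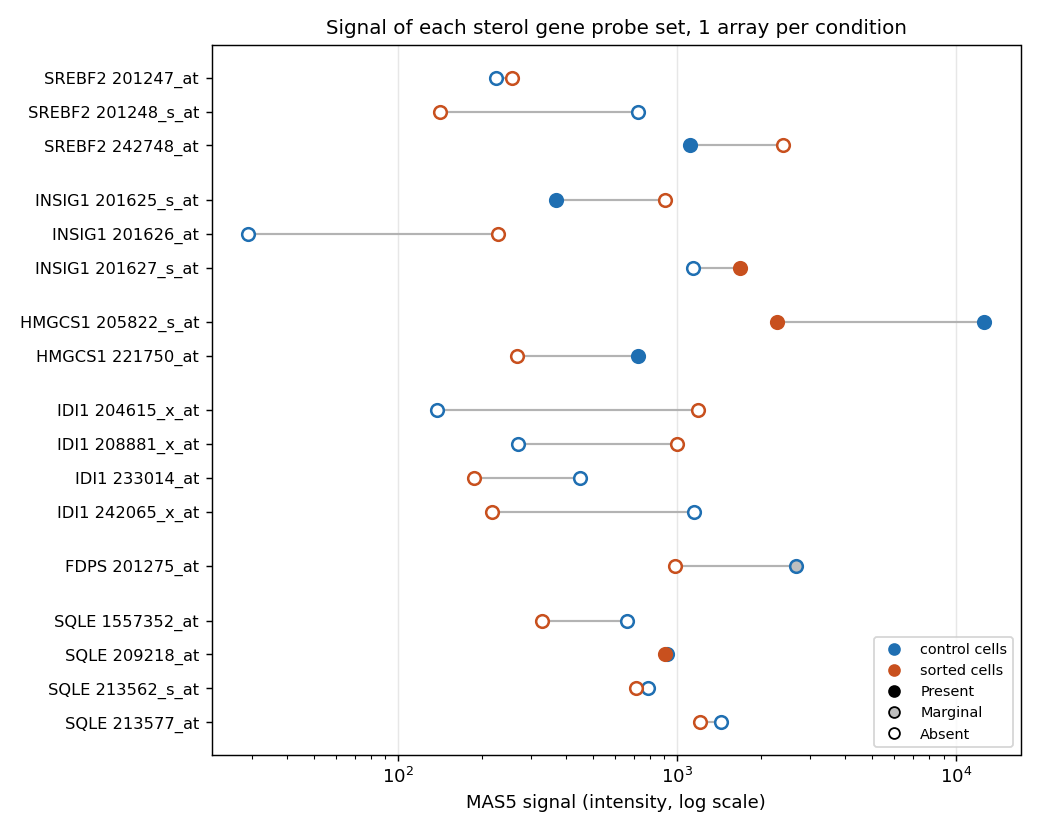
MAS5 signal (horizontal, log scale) of each of the 17 probe sets in control cells (blue) and sorted cells (orange), 1 array each. Filled points are Present, grey points Marginal and open points Absent, and the HMGCS1 probe set 205822_s_at lies at 12529 in control and 2274 in sorted cells with both points filled.

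HMGCS1 encodes the cytosolic HMG-CoA synthase, which makes the substrate of HMG-CoA reductase. Its probe set 205822_s_at had a signal of 12529 in control cells, with a detection p-value of 0.000244, and of 2274 in sorted cells, with 0.0142. It was Present in both samples and 5.51-fold dimmer in sorted cells, a log2 ratio of -2.46. Of the 2556 probe sets Present in both samples, 10, this one included, had a log2 ratio this low or lower, or 0.391%. The SD of the log2 ratios of those 2556 probe sets was 0.67. In a bulk sample, fewer cells that express a gene and less of its RNA per cell cannot be told apart.

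The second HMGCS1 probe set, 221750_at, was Present in control cells at 721 and Absent in sorted cells at 266. Its signal was 2.71-fold dimmer in sorted cells, a log2 ratio of -1.44. The sorted signal exceeded 159, the dimmest signal called Present there, so it was not raised for a lower limit. The control call was close to its limit, with a detection p-value of 0.0461 where Present calls reached 0.0490. Among the 2141 probe sets Present in control and Absent in sorted cells, 26.3% had a log2 ratio this low or lower. The HMGCS1 probe sets thus pointed the same way and lay 1.02 apart on the log2 scale. Over the 5015 genes read by 2 probe sets, the median distance was 1.48, and 49.5% had both on the same side of 0.

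IDI1, the next of these genes along the route, encodes the isomerase that balances the pair of 5-carbon isoprenoids. It was Absent in both samples at all 4 of its probe sets. Their log2 ratios were 3.10 for 204615_x_at (138 in control and 1184 in sorted cells), 1.90 for 208881_x_at (268 and 997), -1.26 for 233014_at (447 and 186) and -2.40 for 242065_x_at (1153 and 218). These probe sets pointed in opposite directions, 2 each way, and spanned 5.50 on the log2 scale, against a median of 3.21 over the 1393 genes with 4 probe sets. IDI1 therefore has no measured level, and its ratios give no direction.

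FDPS encodes farnesyl diphosphate synthase, whose product feeds sterols and the farnesylation of proteins. It is read by 201275_at alone, with 2673 in control cells, where the call was Marginal, and 979 in sorted cells, where it was Absent. The log2 ratio was -1.45, in the direction of HMGCS1, but the probe set is not counted by the 2-fold rule and no second probe set is there to compare. Of the 535 probe sets with this pair of calls, 23.9% had a ratio this low or lower. The control detection p-value was 0.0562, and allowing Marginal calls would raise the count of lower probe sets from 2 to 3.

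SQLE encodes squalene epoxidase, which carries out the first oxygen-dependent step of sterol synthesis. Its probe set 209218_at was Present in both samples and its signals were close, 921 in control and 901 in sorted cells, a log2 ratio of -0.03. The other SQLE probe sets were Absent in both samples, at 786 and 713 for 213562_s_at (log2 ratio -0.14), 1430.1 and 1209 for 213577_at (-0.24) and 661 and 327 for 1557352_at (-1.02). All 4 ratios were below 0, where 12.5% of genes with 4 probe sets had them all on the same side, and 3 of the 4 were within the range of the hybridisation spikes. The detected SQLE probe set and the detected HMGCS1 probe set, both Present on both arrays, lay 2.43 apart in their log2 ratios.

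**Figure D2:**
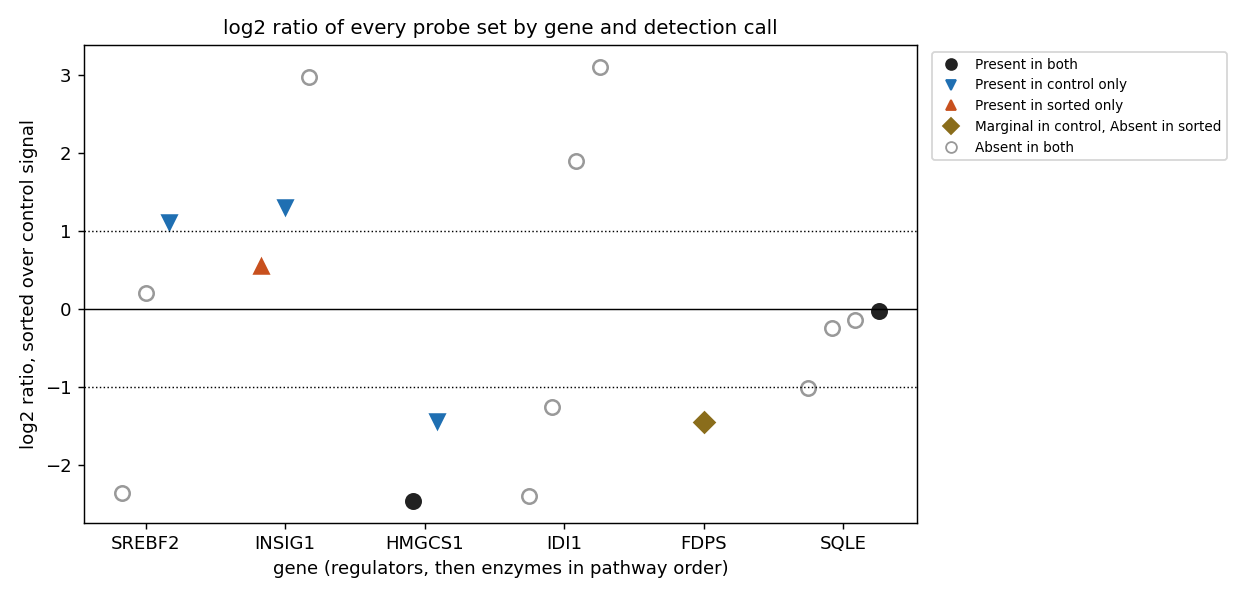
log2 ratio of sorted over control signal for every probe set, by gene, with marker shape and colour for the pair of detection calls and dotted lines at 2-fold. The HMGCS1 probe sets lie at -2.46 and -1.44, the SQLE probe set Present in both samples lies at -0.03, and the open points of IDI1 spread from -2.40 to 3.10.

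Among the regulators, INSIG1 is read by 3 probe sets, all with a log2 ratio above 0. Of all genes with 3 probe sets, 24.7% had them all on the same side of 0. The probe set 201627_s_at was Absent in control cells at 1137 and Present in sorted cells at 1671, a log2 ratio of 0.56, with a detection p-value of 0.0461 in sorted cells. The probe set 201625_s_at had the reverse calls. It was Present in control cells at 368 and Absent in sorted cells at 906, so its signal was 2.46-fold brighter in the sample in which it was not detected. The remaining probe set, 201626_at, was Absent in both samples, at 29.1 and 228, and its ratio of 2.97 became -0.02 when dim signals were raised to the median signal of the array's Absent probe sets. No INSIG1 probe set passed the 2-fold rule, and the 2 that were detected were detected in different samples.

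SREBF2, the precursor of the transcription factor itself, was read by 3 probe sets. The probe set 242748_at was Present in control cells at 1111 and Absent in sorted cells at 2398, a log2 ratio of 1.11 against the direction of its calls. The others were Absent in both samples, with 223 and 257 for 201247_at (log2 ratio 0.20) and 724 and 141 for 201248_s_at (-2.36). SREBF2 thus had ratios on both sides of 0 that spanned 3.47 on the log2 scale, against a median of 2.52 over the 2780 genes with 3 probe sets.

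The INSIG1 and SREBF2 probe sets with signal and call in opposite directions belong to a small class. Of the 2141 probe sets Present in control and Absent in sorted cells, 416 (19.4%) were brighter in sorted cells, and 23 (1.07%) were so at 2-fold or more. Of those 23, 2 are the INSIG1 and SREBF2 probe sets described here. The MAS5 detection call compares perfectly matched with mismatched probes within a set, whereas the signal is a weighted mean of their differences, so the 2 readouts need not move together.

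**Figure D3:**
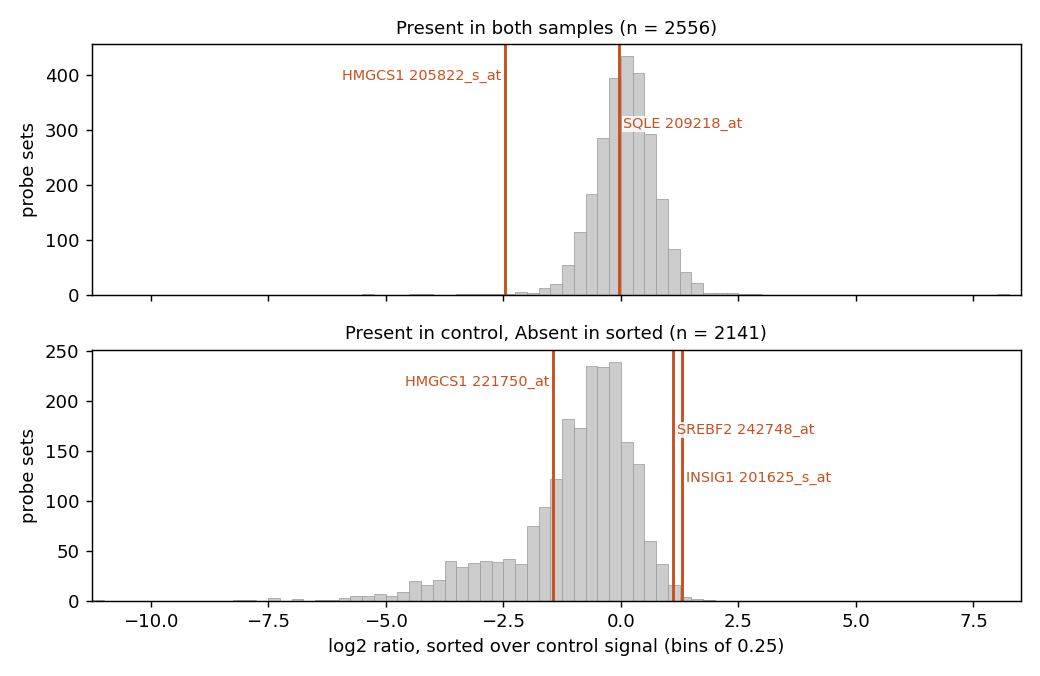
Number of probe sets per bin of 0.25 of the log2 ratio of sorted over control signal, for all 2556 probe sets Present in both samples (top) and all 2141 Present in control and Absent in sorted cells (bottom), with the sterol gene probe sets of those classes as orange lines. HMGCS1 205822_s_at lies at -2.46 in the lower tail of the top panel, and INSIG1 201625_s_at and SREBF2 242748_at lie at 1.30 and 1.11 in the upper tail of the bottom panel.

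Taken at the brightest probe set of each gene, the log2 ratio was -2.46 for HMGCS1, -1.45 for FDPS, -0.24 for SQLE, 0.56 for INSIG1, 1.11 for SREBF2 and 1.90 for IDI1. The median of the 6 genes was 0.16, beside 0.0042 over all 19775 genes with a probe set of 1 symbol. It turned to -0.75 with gene-specific probe sets only. The brightest probe sets of IDI1, FDPS and SQLE were not Present in either sample, that of SREBF2 went against its calls and that of INSIG1 lay within the range of the hybridisation spikes, so the median gives no direction for the pathway. Of the 2 genes with a probe set Present in both samples, HMGCS1 was lower while SQLE differed by less than the spikes. The median over the 17 probe sets was -0.14, and over all probe sets -0.03. Without a detection call, 12 of the 17 differed by 2-fold or more, 5 up and 7 down, where 48.3% of all probe sets and 51.6% of those Absent in both samples did so.

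The pattern of HMGCS1 can be set beside other genes only over 2 samples, so any likeness is a likeness of 1 ratio. Of probe sets that name 1 gene and were Present in both samples, those nearest to 205822_s_at in log2 ratio were TKT at -2.50, CCNE2 at -2.17 and CLTA at -2.88. For 221750_at, among those Present in control cells only, they were PIAS2, NSFL1C and EOLA2-DT, each within 0.0026 of its log2 ratio.

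The transcript of SR-BI was detected in sorted cells at 2 of 5 SCARB1 probe sets. Its probe set 201819_at went from 99.9, called Absent, to 61076, called Present, and 1552256_a_at from 1176, Absent, to 120463, Present. Their log2 ratios were 9.26 and 6.68, and the first was 8.69 with its control signal raised to the dimmest Present signal. The other SCARB1 probe sets were not Present in either sample, with 4.13 for 215834_x_at, 0.39 for 215835_at and 0.36 for 232421_at. The 6 sterol gene probe sets Present in at least 1 sample lay between -2.46 and 1.30.

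Of 17 other enzymes listed with sterol synthesis, 14 had a probe set that named the gene alone. Of these 14, 3 were Present in at least 1 sample. By probe set 4 of 26 were Present, 2 were higher and 0 lower, against 12.5%, 1.61% and 1.77% of all probe sets. Both higher probe sets were of GGPS1. This enzyme makes geranylgeranyl diphosphate from farnesyl diphosphate, on a branch that leaves the route to sterols. Its signals were 103 in control cells and 832 in sorted cells for 202321_at, and 473 and 1049 for 202322_s_at. Both were detected in sorted cells only, with log2 ratios of 3.02 and 1.15. With dim signals raised, these became 2.49 and 1.15 at the dimmest Present signal, and 1.79 and 1.15 at the median of the Absent probe sets. MVK, mevalonate kinase, was Present in both samples at 36907_at with 7750 and 11166, a log2 ratio of 0.53, while its other probe sets were Absent in both with ratios between -2.13 and 0.11. ACAT2, which joins acetyl-CoA units, was Marginal and then Present at 1263 and 1333. The median over the 26 probe sets of this list was 0.09. A further probe set, 216607_s_at, annotated to both LRRD1 and CYP51A1, was Present in both samples and lower. It had 4069 in control and 1357 in sorted cells, a log2 ratio of -1.58. As it names no single gene, the counts of this list leave it out.

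Among 10 genes of SREBP processing and control with a probe set, 4 were Present in at least 1 sample and 1 was higher by the 2-fold rule. By probe set 4 of 19 were Present and 1 was higher, against 12.5% and 1.61% of all probe sets. SCAP, the escort of SREBP2, was Present in both samples with 3830 and 4976, a log2 ratio of 0.38. RNF139, a ubiquitin ligase of the endoplasmic reticulum, was Present in both with 7616 and 8785, a ratio of 0.21. ERLIN2 221543_s_at passed the rule, from 195 (Absent) to 402 (Present) with a ratio of 1.04, which was 0.93 after centring and 0.75 with dim signals raised, and its relative ERLIN1 was Present in control cells only at 202444_s_at, with -0.78. At its brightest probe set ERLIN2 had -1.24 and was Absent in both samples, and at 221542_s_at, also Absent in both, it had 1.47.

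Among 12 genes of sterol uptake, transport and storage, 2 were Present. By probe set 2 of 30 were Present and 1 was higher. Of all probe sets 12.5% were Present in at least 1 sample, 1.61% higher and 1.77% lower. SCARB2, a lysosomal relative of SR-BI, was higher at 201647_s_at, from 339 (Absent) to 854 (Present), a log2 ratio of 1.33. Its other probe sets were Absent in both samples, with 0.17 at the brightest, 201646_at, 0.08 at 215754_at and 0.58 at 224983_at. SOAT1, which esterifies cholesterol for storage, went from 584 (Absent) to 897 (Present) at 228479_at, a ratio of 0.62. The remaining SOAT1 probe sets, Absent in both samples, had 1.31 and 1.49. Of 6 genes of efflux and the LXR response, 2 were Present. By probe set 4 of 19 were Present, 1 was higher and 1 lower. The probe sets of ABCA1 pointed both ways, and all 3 of APOE pointed down. ABCA1, which exports cholesterol to apolipoprotein A-I, was higher at 203505_at (157 to 646, log2 ratio 2.04, or 1.43 with dim signals raised) but had -0.39 at 203504_s_at, Present in control cells only. The remaining ABCA1 probe sets, Absent in both samples, had -0.59 and -1.84. APOE was lower at 203382_s_at (2053 to 303, log2 ratio -2.76) and had -0.50 at 212884_x_at, Present in both. At 203381_s_at, Absent in both samples, APOE had -4.00. Of 9 fatty acid enzymes that SREBP1 governs, 2 were Present and 0 passed the rule, and 2 of their 23 probe sets were Present. SCD had 0.78 at 211162_x_at, detected in sorted cells only, but 0.16, -1.71 and -2.49 at the others, Absent in both samples, and its median was -0.78. ACLY had 0.21 at 201128_s_at, also detected in sorted cells only, and 0.15 and -1.24 at the others. In all 5 lists together, the 4 probe sets that name 1 gene and were Present in both samples had log2 ratios between -0.50 and 0.53. The probe set annotated to both LRRD1 and CYP51A1, also Present in both samples, lay outside this range at -1.58.

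**Figure D4:**
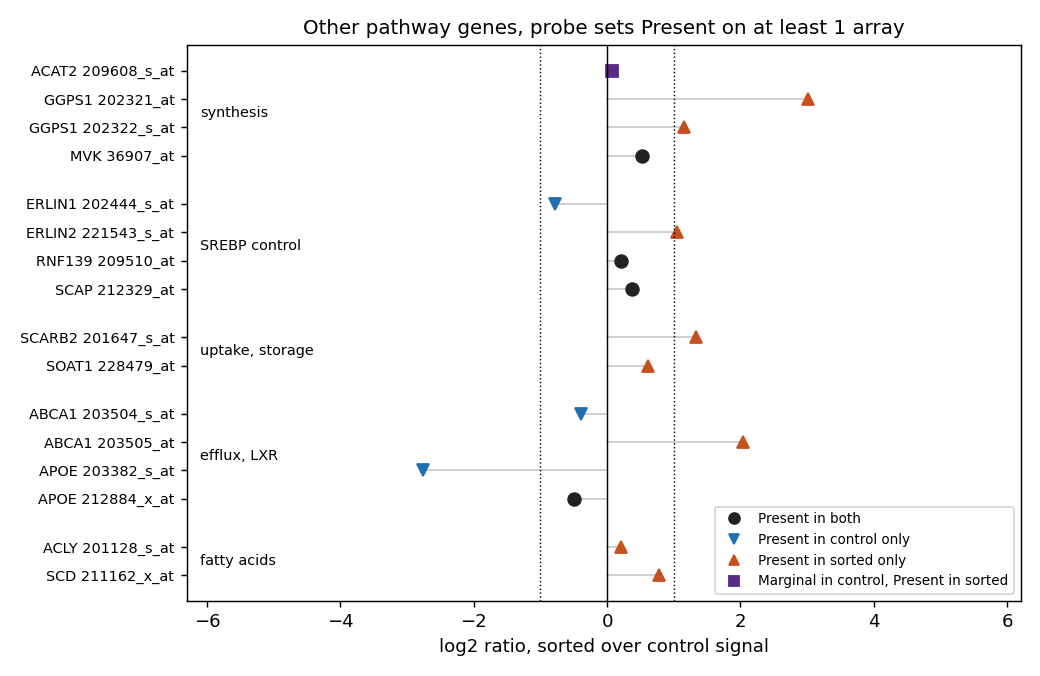
log2 ratio of sorted over control signal for the probe sets of other sterol and fatty acid genes that name 1 gene and were Present on at least 1 array, grouped by list, with marker shape for the pair of detection calls and dotted lines at 2-fold. GGPS1 lies above 1 at both probe sets and APOE 203382_s_at lies at -2.76.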

How the data were processed

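The authors deposited for each array a MAS5 signal, an intensity per probe set scaled so that its mean without the 2% at either end was 500.0, a detection call and a detection p-value. Affymetrix Expression Console is named in the submitters' processing notes, with no version given in the sources used here. Each deposited p-value was used through the authors' call and is printed for single probe sets. The series' value table had equal signals, to within 0.00050%. Samples were grouped by their labels. Left out were 62 Affymetrix control probe sets. Gene names came from the array's annotation, and for other pathway genes from probe sets with 1 symbol only. The suffixes _s_at and _x_at mark probe sets that may bind more than 1 gene.

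Log2 ratios were computed with Python 3.11.15, numpy 2.4.6 and pandas 2.3.3 and plotted with matplotlib 3.10.9, without further normalization. For lower limits a dim signal was raised to the dimmest Present signal of its array, 148 in control and 159 in sorted cells, if it lay under it. The genes named were the 7 members, SCARB1, each list gene Present in at least 1 sample, and the 3 nearest in ratio to each member that passed the 2-fold rule. Members, lists and motifs were chosen with earlier results of these data known. As alternatives, quantile normalization was run, and centring on the median of probe sets detected on both arrays, raised dim signals, the value table, other detection and fold rules, and other choices of probe sets. The rule was tested on simulated data for this comparison, over 54613 probe sets with 50 planted at each size and noise taken from probe sets detected on both arrays. Recovery was 94% for a planted log2 ratio of 2, 98% for 3, 96% for -2 and 100% for -3. Of simulated probe sets with no planted ratio the rule took in 9.8%. The noise holds any real difference between the 2 samples, so 9.8% is not a rate of false calls. These rates hold for the noise of probe sets detected on both arrays, as 2 of the 17 member probe sets were. They do not describe the 10 that were Absent in both samples. Precision is limited by the number of arrays, 1 per condition.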

Additional observations from a re-analysis of the deposited data

How the results depend on the processing

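No paired analysis was possible because each condition has 1 array, and for the same reason no array could be left out. Quantile normalization, centring, which shifted all log2 ratios by 0.11, and the series' value table changed the sign of 0 of the 17 log2 ratios and moved 0 of them by more than 0.33, the SD of the hybridisation spikes. Raising dim signals to the median of the Absent probe sets moved 4 and changed the sign of 1, INSIG1 201626_at. Neither HMGCS1 probe set moved by more than 0.33 in these 4 alternatives. Without a detection call 5 probe sets were higher and 7 lower, and with Marginal calls allowed 3 were lower. A 4-fold rule left 1 lower, and gene-specific probe sets only left 1 lower, because 205822_s_at ends in _s_at. With gene-specific probe sets only the median of the 6 genes was -0.75, because other probe sets then stand for HMGCS1, IDI1 and INSIG1. Detection limits what these arrays show, with 10 of 17 probe sets Absent in both samples, among them all 4 of IDI1 and 2 of 3 of SREBF2.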

Other observations

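The array also carries a probe set for FDPSP2, a pseudogene of FDPS, which was chosen after its values were seen. Its probe set 231366_at was Present in both samples with 727 in control cells and 706 in sorted cells, a log2 ratio of -0.04, while the FDPS probe set had -1.45. As the control cells were untransfected rat cells, their signal is of rat RNA bound to human probes. Which transcript gave it was not tested, so it is no measure of the pseudogene. Calls and signals also disagreed in the direction opposite to that of INSIG1 and SREBF2. Of 1769 probe sets Absent in control and Present in sorted cells, 285 (16.1%) were dimmer in sorted cells, and 18 (1.02%) were so at 2-fold or more.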
